A study of Mus musculus with 16 samples.

Results

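The Gimap genes encode GTPases of the immunity-associated protein family, and 8 of them were to be followed: Gimap1, Gimap3, Gimap4, Gimap5, Gimap6, Gimap7, Gimap8 and Gimap9. They were found by their gene names among the spots of a mouse expression array. Probes named for 7 of the 8 genes were present, 10 probes of the 41174 on the array, and Gimap8 was not analysed here. Gimap3, Gimap5 and Gimap7 had 2 probes each, and every probe is reported. The family was chosen by the values of Gimap5 in livers taken 5 h after concanavalin A, which were higher with stem cells by 1 of its 2 probes. That comparison is therefore given below as values with no test. The Gimap5 values of the 2 h livers entered a comparison of schedules behind the choice, so Gimap5 is left out of the main counts that use livers.

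The samples came from female C57Bl/6 mice, all of which had received concanavalin A (300 µg), a lectin of plant origin whose injection causes a hepatitis driven by T cells, and no mouse without concanavalin A was measured. Livers were taken at 2 h from 3 mice given 100000 adipose tissue derived stem cells at the time of the lectin (mice 8, 9 and 10) and from 3 mice without them (mice 11, 12 and 13), and at 5 h from 3 mice given the same dose at 3 h (mice 1, 2 and 3) and from 3 mice without them (mice 4, 5 and 6). Hepatic inflammatory cells were obtained at 5 h as 2 samples with stem cells given at 3 h (987 and 989) and 2 without (983 and 985). The stem cells were grown from inguinal fat of C57Bl/6 mice and were given through the tail vein. For the 2 cell samples without stem cells, the source label also mentions the treatment while the description and treatment labels do not, and they were used as untreated. The labels do not say how these cells were isolated, nor that each cell sample came from a mouse of its own, so p-values between cell samples measure the spread between these samples alone.

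Gimap proteins share a GTP-binding domain of the AIG1 type and are known mainly from lymphocytes, where several of them sit on membranes of organelles. Gimap5 is required for the survival of resting T cells, and its loss in rodents leads to a shortage of lymphocytes and to liver disease. Gimap3 is its closest relative in the mouse, Gimap1 is needed for mature B and T cells, and Gimap4 has been tied to T cell death. Gimap6 binds an Atg8-family protein of autophagy, and Gimap7 speeds GTP hydrolysis when it pairs with itself or a relative. The genes lie side by side in a single cluster.

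On build mm8 the 10 probes lay within 87255 bases of chromosome 6, in the order Gimap9 (chr6:48607426-48607485), Gimap4 (chr6:48620453-48620512), Gimap6 (chr6:48631385-48631444), Gimap7, Gimap1 (chr6:48672996-48673055), Gimap5 and Gimap3. Gimap7 was probed through the cDNA AK041116 (chr6:48648426-48648485) and through its mRNA NM_146167 (chr6:48653858-48653917), 5432 bases apart. Gimap5 was probed through the cDNA AK087160 (chr6:48676977-48677036) and through its mRNA NM_175035 (chr6:48683088-48683147), 6111 bases apart, so the cDNA probe lay between the Gimap1 probe and the Gimap5 mRNA probe. Both Gimap3 probes (chr6:48694611-48694670 and chr6:48694621-48694680) were designed on the mRNA NM_031247. They start 10 bases apart, so they share most of their 60 bases and are no independent measures of Gimap3. No gene annotation of that build was used here, so the exon or intron behind each probe is not given. AK087160 and AK041116 were assigned to Gimap5 and Gimap7 by the array's gene names alone, not by a RefSeq accession. The AK087160 probe starts 3981 bases after the Gimap1 probe, nearer to it than to the Gimap5 mRNA probe.

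The sequences before the start sites are shown for Gimap1 and Gimap5, whose mRNA probes had the largest differences between inflammatory cells with and without stem cells (neither passed the test), and for Gimap6, whose levels there overlapped. They are the 250 bases before the start, 5′ to 3′ on the gene's strand, from RefSeq on build GRCm38.p6. Capitals mark AGGAAG, a core of binding sites of ETS factors.
Gimap1 (chr6:48738797-48739046, plus strand): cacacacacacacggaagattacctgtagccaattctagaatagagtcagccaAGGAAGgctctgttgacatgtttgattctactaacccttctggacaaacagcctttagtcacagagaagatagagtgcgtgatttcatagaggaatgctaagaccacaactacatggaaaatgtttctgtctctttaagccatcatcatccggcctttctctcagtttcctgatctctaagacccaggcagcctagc
Gimap5 (chr6:48745947-48746196, plus strand): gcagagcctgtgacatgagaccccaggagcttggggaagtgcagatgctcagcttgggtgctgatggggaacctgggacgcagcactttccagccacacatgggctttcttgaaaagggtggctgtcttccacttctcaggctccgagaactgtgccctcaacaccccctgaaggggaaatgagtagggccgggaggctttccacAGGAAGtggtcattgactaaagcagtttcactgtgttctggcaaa
Gimap6 (chr6:48708245-48708494, minus strand): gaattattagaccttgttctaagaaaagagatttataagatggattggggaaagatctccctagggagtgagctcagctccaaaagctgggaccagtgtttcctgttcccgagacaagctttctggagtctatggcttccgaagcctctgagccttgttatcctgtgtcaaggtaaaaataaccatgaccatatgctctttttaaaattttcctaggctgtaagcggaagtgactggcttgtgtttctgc
RefSeq held 9 such entries for the 8 Gimap genes, 2 of them for Gimap8. AGGAAG was present on either strand in 7 of the 9 entries, against 29.5% of 32851 promoters of the same length. It lay 197 bases before the start of Gimap1, 85 before that of Gimap3, 87 and 33 before that of Gimap4, 45 before that of Gimap5, 115 before that of Gimap7, 48 before 1 start of Gimap8 and 180 before that of Gimap9. The Gimap6 window held none. TGTGGT, a core of RUNX sites, was present in 3 of 9 entries (Gimap1, Gimap4 and Gimap7) against 14.0% of all promoters. TATAAA was present in 1 of 9 (Gimap6, on the reverse strand) against 12.4%. The longer ETS motif CCGGAAG, the KLF motif CCACACCC and the NF-kappaB motif GGACTTTCC were present in 0 of 9, against 6.91%, 3.20% and 0.283% of all promoters. CCGGAAG and AGGAAG end in the same 5 letters but cannot match at the same place. These 6 motifs were chosen with the expression results known, and a match describes these letters only.

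**Figure D1:**
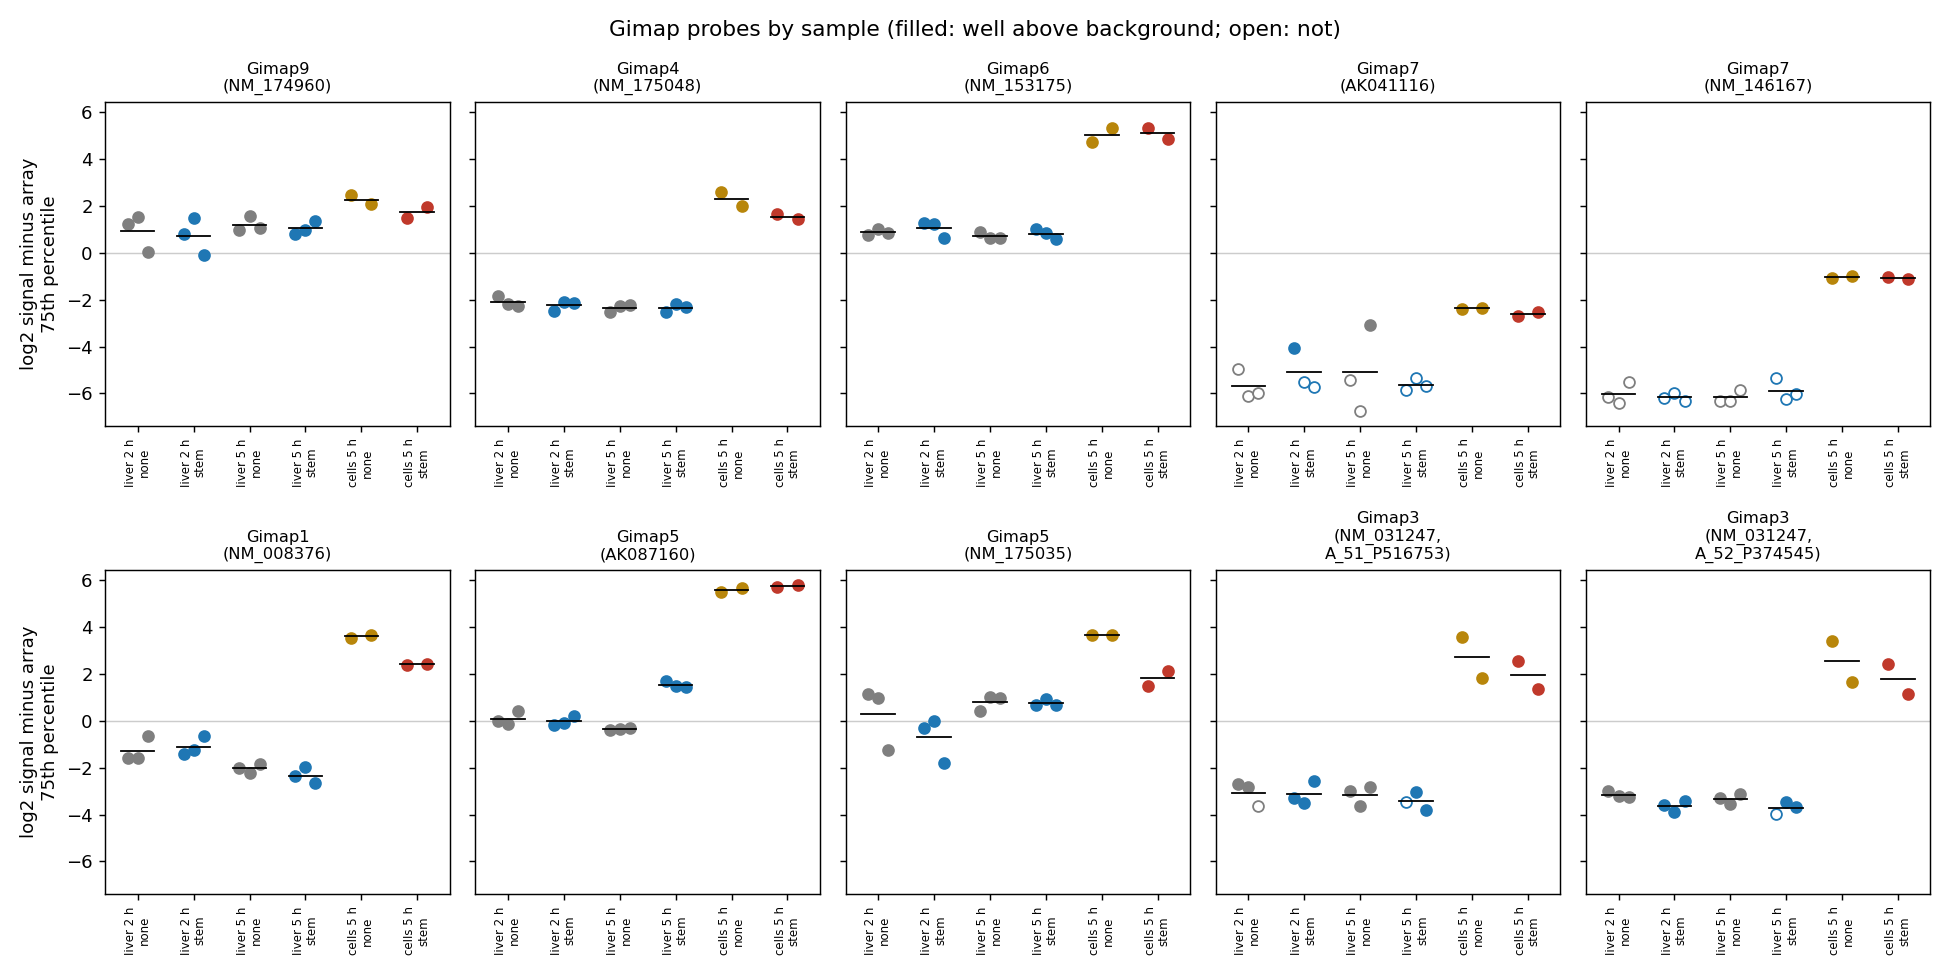
Each panel shows 1 Gimap probe and each point 1 sample, as log2 of the processed signal minus the 75th percentile of its array, with a line at each group mean. The samples of inflammatory cells lie above the livers by every probe except that of Gimap9, where the lower of the cell samples with stem cells (1.49) lies below mice 5 and 12.

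Levels are given as log2 of the processed signal minus the 75th percentile of the same array, so a level of 0 is that percentile. They are compared between samples of 1 probe and not between probes. The livers were run on 3 slides, each with 1 liver of each of the 4 groups, and the 4 cell samples on a slide of their own, so tissue and slide cannot be told apart. On each array 52.1% to 62.5% of the spots were well above background. Treatment also went with the place on the slide for the 2 h livers and the inflammatory cells, and these cannot be told apart either. The 2 h and 5 h livers lay at different places on every slide, so time and place cannot be told apart. Mice 10 and 13, both at 2 h, lay away from the other mice of their groups by the Gimap1, Gimap9 and Gimap5 mRNA probes.

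The labelled cells were set beside their markers. In inflammatory cells without stem cells, 14 of 16 T cell markers, 13 of 13 NK cell markers and 14 of 14 B cell markers were higher than in livers at 5 h (limma, adjusted p under 0.05), with median changes of 5.15, 5.92 and 6.51. All 11 hepatocyte markers were lower, with a median change of -6.46, and 11 of 16 endothelial markers were lower. Alb, the hepatocyte gene for albumin, was lower by a log2 change of -4.02 ± 0.47 (SE; adjusted p = 8.23e-06 by limma) and still at levels of 5.32 and 7.11 in the cells. Of the T cell markers 1 was lower. Of 11 neutrophil markers 5 were higher and 0 lower, and of 13 macrophage and monocyte markers 3 were higher and 4 lower. Over all 16314 genes of this fit 28.8% were called higher and 31.3% lower, and the median change was -0.04. The fit of the livers alone kept 14 of the T cell, 9 of the NK cell and 12 of the B cell markers. The counts in the cells therefore rest in part on genes dim in the livers.

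By its mRNA probe Gimap5 stood at 3.65 and 3.66 in cells without stem cells and at 1.48 and 2.12 in cells with them. In livers it was at 1.15, 0.95 and -1.24 at 2 h without stem cells, at -0.34, -0.02 and -1.79 at 2 h with them, at 0.41, 1.02 and 0.95 at 5 h without them and at 0.67, 0.91 and 0.66 at 5 h with them. Both cell groups lay above all 12 livers and did not overlap each other. The 4 liver groups overlapped their neighbours in the order of means, and mice 13 and 10 had the lowest values.

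By the cDNA probe AK087160, Gimap5 stood at 5.46 and 5.66 in cells without stem cells and at 5.69 and 5.79 in cells with them. In livers it was at 0.00, -0.14 and 0.40 at 2 h without stem cells, at -0.17, -0.09 and 0.19 at 2 h with them, at -0.42, -0.37 and -0.33 at 5 h without them and at 1.70, 1.48 and 1.41 at 5 h with them. The 3 livers with stem cells at 5 h lay above the other 9 livers and below the cells, and those without stem cells at 5 h were the lowest. The 2 groups at 2 h overlapped.

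Gimap3, the close relative of Gimap5, was at 3.56 and 1.82 in cells without stem cells and at 2.53 and 1.33 in cells with them by probe A_51_P516753, and at 3.40, 1.65, 2.42 and 1.13 in the same order by probe A_52_P374545. The 12 livers lay between -3.82 and -2.57 by the former probe and between -3.97 and -3.00 by the latter. Samples 983 and 987 were the higher of each cell pair by both probes, the cell groups overlapped, and the cells lay above all livers. The signal was not well above background in mice 13 and 1 by the former probe and in mouse 1 by the latter.

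Gimap1 was at 3.53 and 3.64 in cells without stem cells and at 2.37 and 2.41 in cells with them. In livers it was at -1.57, -1.59 and -0.67 at 2 h without stem cells, at -1.41, -1.25 and -0.68 at 2 h with them, at -2.03, -2.22 and -1.84 at 5 h without them and at -2.37, -1.98 and -2.68 at 5 h with them. The cell groups did not overlap each other. The 2 h livers lay above the 5 h livers in either treatment, and within each time the treatments overlapped.

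Gimap4 was at 2.58 and 1.96 in cells without stem cells and at 1.62 and 1.43 in cells with them. Its 12 livers lay between -2.53 and -1.85, and all 4 liver groups overlapped their neighbours. Gimap6 was at 4.70 and 5.30 in cells without stem cells and at 5.31 and 4.83 in cells with them, and its livers lay between 0.56 and 1.26. Neither the cell groups nor the liver groups of Gimap6 were separated.

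Gimap9 was at 2.44 and 2.06 in cells without stem cells and at 1.49 and 1.95 in cells with them. Its livers ran from -0.10 in mouse 10 to 1.55 in mouse 5. The cells without stem cells lay above all 12 livers, and the lower of the samples with stem cells lay below mice 5 and 12.

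Gimap7 was the member nearest to background. By its mRNA probe it was at -1.09 and -1.01 in cells without stem cells and at -1.02 and -1.14 in cells with them, and it was well above background in 0 of 12 livers. By AK041116 it was at -2.41 and -2.35 in cells without stem cells and at -2.69 and -2.55 in cells with them, and it was well above background in 2 of 12 livers, mouse 6 at -3.08 and mouse 8 at -4.06. Both probes were in the fits that hold the cells and were left out of the liver fit, which kept the other 8.

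The cells were compared with livers at 5 h without stem cells, which were also the controls of the comparison behind the choice, on all 16 arrays. Of the 10 Gimap probes 3 are given without a test or a place in the count: both Gimap5 probes, whose values in these livers entered the choice, and the Gimap7 mRNA probe, which was kept only through the cells. Of the other 7 probes, 6 were higher in the cells and 0 lower (limma, adjusted p under 0.05), while 30.9% of the 29497 probes tested were called higher and 58.5% were called in either direction. The 6 probes were of 5 genes: Gimap1, Gimap3, Gimap4, Gimap6 and Gimap7. Since bulk RNA was measured, a larger share of cells of a type and more RNA per cell cannot be told apart.

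Gimap3 differed by 5.84 ± 0.53 and 5.85 ± 0.45 by its 2 probes, Gimap1 by 5.61 ± 0.31 (48.9-fold), Gimap4 by 4.63 ± 0.23 (24.7-fold) and Gimap6 by 4.30 ± 0.26 (19.7-fold), each with an adjusted p from limma of at most 7.66e-07. Gimap7 by AK041116 differed by 2.71 ± 0.80 (adjusted p = 0.0109), with 1 of the 3 livers above background. Without sample 983 or 985, which leaves 1 untreated cell sample assumed to vary like the other groups, it differed by 2.74 (adjusted p = 0.0501) and 2.67 (adjusted p = 0.0527). Gimap9 differed by 1.08 ± 0.47 and did not pass (adjusted p = 0.0635; 95% interval 0.07 to 2.09). Gimap7 by its mRNA probe was at least 9.57-fold higher in the cells. Gimap5 differed by 5.94 by AK087160 and by 2.86 by its mRNA probe, given as values only.

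The same comparison with stem cells given at 3 h was made against livers 1, 2 and 3, whose Gimap5 values led to the choice of the family. The probes of Gimap1, Gimap3, Gimap4 and Gimap6 were higher in the cells (limma, adjusted p under 0.05), against 31.1% of 29498 probes called higher. AK041116 of Gimap7 was well above background in 0 of these 3 livers. It is therefore given without a test, as are the Gimap7 mRNA probe and both Gimap5 probes. Gimap3 differed by 5.37 ± 0.53 and 5.48 ± 0.45, Gimap1 by 4.74 ± 0.31, Gimap6 by 4.26 ± 0.26 and Gimap4 by 3.87 ± 0.23, with adjusted p of at most 1.66e-06 by limma. Gimap7 was at least 2.63-fold higher by AK041116 and at least 7.65-fold by its mRNA probe. Gimap9 (0.68 ± 0.47, adjusted p = 0.219, 95% interval -0.33 to 1.69) did not pass. Gimap5 differed by 4.21 by AK087160 and by 1.05 by its mRNA probe, again as values only.

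**Figure D2:**
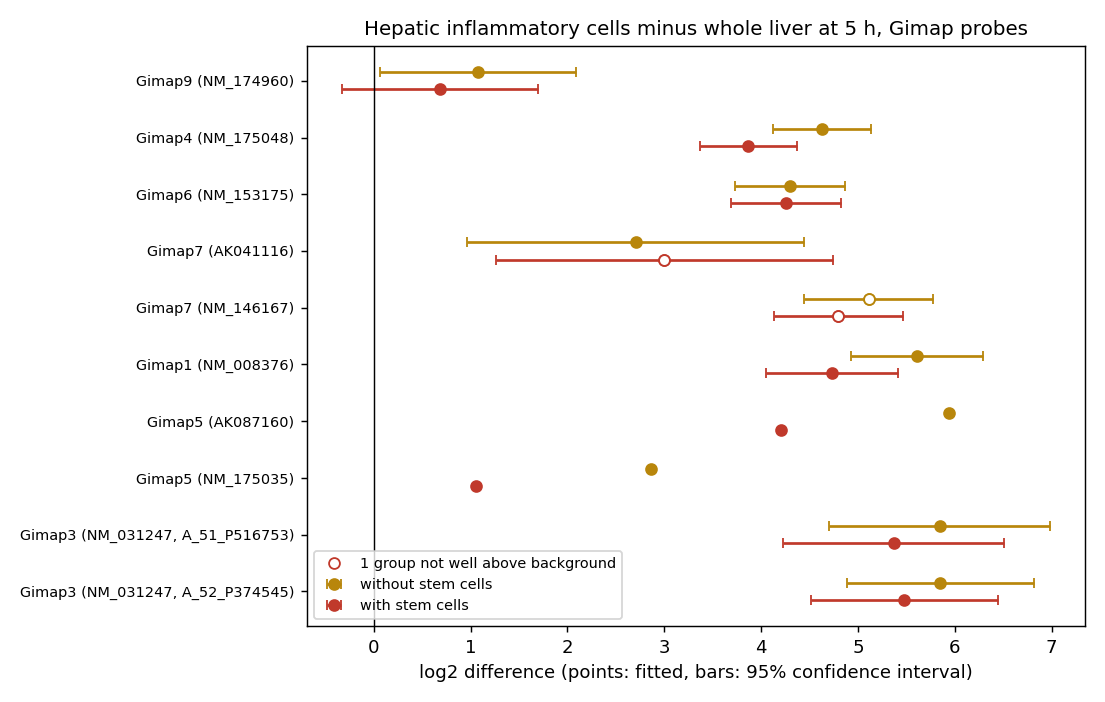
The difference between inflammatory cells and livers at 5 h is shown for each Gimap probe on the log2 scale, without and with stem cells, as the fitted value with its 95% confidence interval from limma. Open points mark probes with 1 group not well above background, and nothing is read from their intervals. Gimap5 has no interval because its values in these livers entered the choice of the family. The intervals of the other filled points lie above 0 without stem cells, and that of Gimap9 reaches below 0 with them.

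Other lymphocyte genes went with the family in this comparison. Of 18 genes of lymphocyte quiescence and homing, 16 were higher in cells without stem cells and 2 lower, with a median change of 3.66, where 28.8% of all genes were called higher and 31.3% lower. The fit of the livers alone kept 14 of these 18 genes, so the count rests in part on genes dim in the livers. Il7r, the receptor for the survival factor interleukin 7, was well above background in no liver and was kept only through the cells. It stood at 0.73 and 1.51 in the cells without stem cells and is given without a test. The probes of Klf2, a factor that keeps T cells quiescent and 1 of the 2 genes counted as lower, disagreed: A_52_P442031 had a change of -1.23 ± 0.24, while by A_51_P144264 the mean level was 5.87 in these cells and 1.58 in the livers. Of 15 measured Bcl2 family genes 8 were higher and 2 lower, among them Bcl2, a survival protein, at 5.06 ± 0.27 and Bok, which promotes death, at -3.24 ± 0.52. Of 14 genes of the Atg8 family and autophagy 2 were higher and 10 lower, with Gabarapl1 at -3.26 ± 0.31 and Map1lc3b at -1.97 ± 0.29, both Atg8-family genes.

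Stem cells against none was then tested within the inflammatory cells, on 4 arrays. Of the 10 Gimap probes 0 passed (limma, adjusted p under 0.05), while 0.00393% of 25443 probes were called, which is 1 probe. An unadjusted p under 0.05 was reached by 2 of the 10 probes and by 16.4% of all probes. With stem cells, 5 of the 10 probes had both samples below both samples without them, against 23.2% of all probes, and 1 had both above, against 27.2%. The 5 were those of Gimap1, Gimap4 and Gimap9, the Gimap5 mRNA probe and AK041116 of Gimap7.

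The Gimap5 mRNA probe had the largest difference of the family, -1.85 ± 0.39 (3.61-fold lower; adjusted p = 0.167 by limma), with both samples below both without stem cells. Gimap1 had -1.19 ± 0.35 (adjusted p = 0.215) and Gimap4 -0.75 ± 0.40 (adjusted p = 0.394). Gimap3 had -0.75 by either probe, with standard errors of 0.69 and 0.71, and Gimap9 had -0.53 ± 0.39. Gimap6 (0.07 ± 0.41) and Gimap7 (-0.03 ± 0.35 by its mRNA probe and -0.24 ± 0.35 by AK041116) lay near 0, with 95% intervals from -0.93 to 1.07, -0.88 to 0.82 and -1.10 to 0.62. The cDNA probe of Gimap5 had 0.18 ± 0.36 (adjusted p = 0.830), with both samples slightly above those without stem cells. With normexp background correction 2 of the 10 probes passed, Gimap1 at -1.41 (adjusted p = 0.0107) and the Gimap5 mRNA probe at -2.04 (adjusted p = 2.9e-05), when 6.26% of all probes were called. Without sample 983 the difference of Gimap3 was 0.12 by either probe.

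Markers of the cell types are given beside these differences, and their part was not tested. With stem cells the median change was -0.35 over 16 T cell markers (13 below 0), -0.33 over 13 NK cell markers, 0.56 over 14 B cell markers, 1.02 over 13 macrophage and monocyte markers, 0.85 over 11 neutrophil markers, 0.53 over 16 endothelial markers and 0.79 over 11 hepatocyte markers. No gene of these lists passed the test, and over all 14253 genes the median was 0.09. The median level of the T cell markers was 3.27 and 3.02 without stem cells and 1.76 and 2.60 with them. It is a median over levels of different genes, so its step between the groups need not match the median change of -0.35. Levels of the other lists are not given. Cd3g, a chain of the T cell receptor complex, had 0.20 ± 0.75, and Cd3e, another chain, had -0.51 ± 0.65 with sample 983 left out as an outlier spot. Ncr1, an NK cell receptor, had -0.39 ± 0.42. Of the lymphocyte quiescence and homing genes 10 of 18 had both samples above, against 27.6% of all genes, and 4 both below, against 24.8%, with a median of 0.41. Il7r had -0.58 ± 0.42 and Bcl2 -0.17 ± 0.41, and neither passed.

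**Figure D3:**
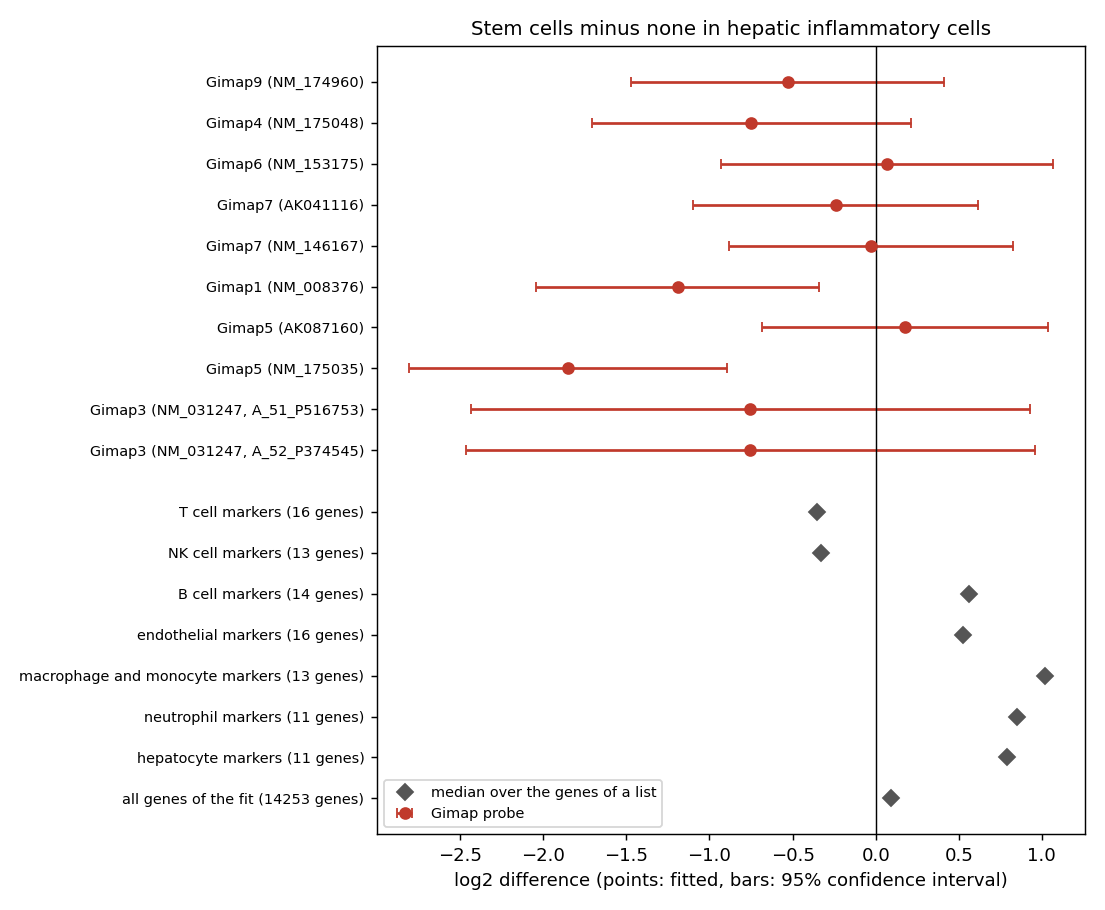
Circles show the log2 difference between inflammatory cells with and without stem cells for each Gimap probe, with the 95% confidence interval from limma, and diamonds the median difference over the genes of each marker list and over all genes. The mRNA probes of Gimap5 (-1.85) and Gimap1 (-1.19) lie farthest to the left of the 10 Gimap probes, whose median is -0.64. The T cell markers have a median of -0.35.

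In 2 h livers, stem cells given with concanavalin A were compared with none. The 2 h values of Gimap5 also entered the comparison of schedules behind the choice, so both its probes are left out of the count. Of the other 6 Gimap probes in the liver fit 0 passed (limma), against 0.0119% of 25205 probes, which is 3 probes, and 1 of the 6 had an unadjusted p under 0.05, against 5.85% of all. Gimap3 had -0.49 ± 0.18 by A_52_P374545 (adjusted p = 0.808, limma), with the 3 livers below those without stem cells, as for 3.78% of all probes, and -0.06 ± 0.34 by its other probe, where the groups overlapped. Gimap1 had 0.16 ± 0.29, Gimap4 -0.13 ± 0.17, Gimap6 0.16 ± 0.20 and Gimap9 -0.22 ± 0.44.

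The Gimap5 mRNA probe differed by -1.002 at 2 h, with differences of -1.29, -2.94 and 1.22 on the 3 slides, and AK087160 by -0.11. Mice 10 and 13, on different slides, carried the lowest values of the mRNA probe. Its difference was -0.46 without mouse 10, -1.76 without mouse 13 and -1.23 without both.

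Among livers without stem cells, 5 h was compared with 2 h, and time cannot be told apart from the place on the slide. Both groups were controls of comparisons behind the choice, so Gimap5 is again left out of the count. Of the other 6 Gimap probes 0 passed (limma), against 10.9% of 25205 probes, and 1 had an unadjusted p under 0.05, against 28.9% of all. Gimap1 had -0.75 ± 0.29 (adjusted p = 0.123, limma), with the 3 livers at 5 h below those at 2 h, as for 17.5% of all probes. Gimap5 differed by -0.46 by AK087160 and by 0.50 by its mRNA probe, the latter by -0.26 without mouse 13. Gimap4 had -0.25 ± 0.17, Gimap6 -0.16 ± 0.20, Gimap9 0.25 ± 0.44, and Gimap3 -0.08 ± 0.34 and -0.17 ± 0.18.

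Markers of the same livers are given beside these values, and their part was not tested. Over all 14650 genes 5.28% were called higher and 7.49% lower, with a median of -0.07. Of 14 measured T cell markers 1 was higher at 5 h, Cd8a (1.13 ± 0.27, adjusted p = 0.0277 by limma), and 0 lower, with a median of -0.08. Of 9 NK cell markers 1 was higher, Klrk1, an activating receptor, at 0.60 ± 0.12, with a median of 0.31. Of 12 B cell markers 2 were lower, with a median of -0.85, among them Blnk, a signalling adaptor, at -1.13 ± 0.23. Of 16 endothelial markers 6 were lower, with a median of -0.96, among them Kdr, a receptor for vascular growth factor, at -1.81 ± 0.27. Of 10 neutrophil markers 1 was higher, Ngp, a granule protein, at 2.05 ± 0.57, and all 10 changes were above 0, with a median of 1.87. Of 14 measured Bcl2 family genes 2 were higher (Bcl2l1 and Bak1) and 2 lower (Bik and Bok), and of 14 genes of the autophagy list 1 was higher (Atg16l1) and 1 lower (Gabarapl1).

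In livers at 5 h, the comparison behind the choice, stem cells given at 3 h went with a difference of 1.90 in Gimap5 by AK087160, and of 2.11, 1.79 and 1.81 within the 3 slides. This was 1 of 8 probes whose groups did not overlap, against 20.7% of all probes in either direction, and nothing is read from it. The mRNA probe of Gimap5 had -0.04, with 0.27, -0.36 and -0.04 within the slides. The other members had 0.01 (Gimap4), 0.11 (Gimap6), -0.14 (Gimap9), -0.31 (Gimap1), and -0.28 and -0.38 (Gimap3), and the median of the 8 was -0.09. The median over the 14 measured T cell markers was 0.14, over 12 B cell markers 0.48 and over all genes 0.08.

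The level of Gimap5 by AK087160 minus that by the mRNA probe was computed in every sample, and only differences between arrays are read. It was 1.82 and 2.00 in cells without stem cells and 4.20 and 3.67 in cells with them, so the groups did not overlap. Of all single probes 50.4% did not overlap between these cell groups in either direction. No such share was computed for differences of 2 probes. At 2 h it was -1.15, -1.08 and 1.64 in livers without stem cells and 0.17, -0.07 and 1.98 in livers with them, and the groups overlapped. In livers at 5 h, where the values led to the choice, it was -0.82, -1.39 and -1.28 without stem cells and 1.02, 0.57 and 0.75 with them, and nothing is read from it.

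**Figure D4:**
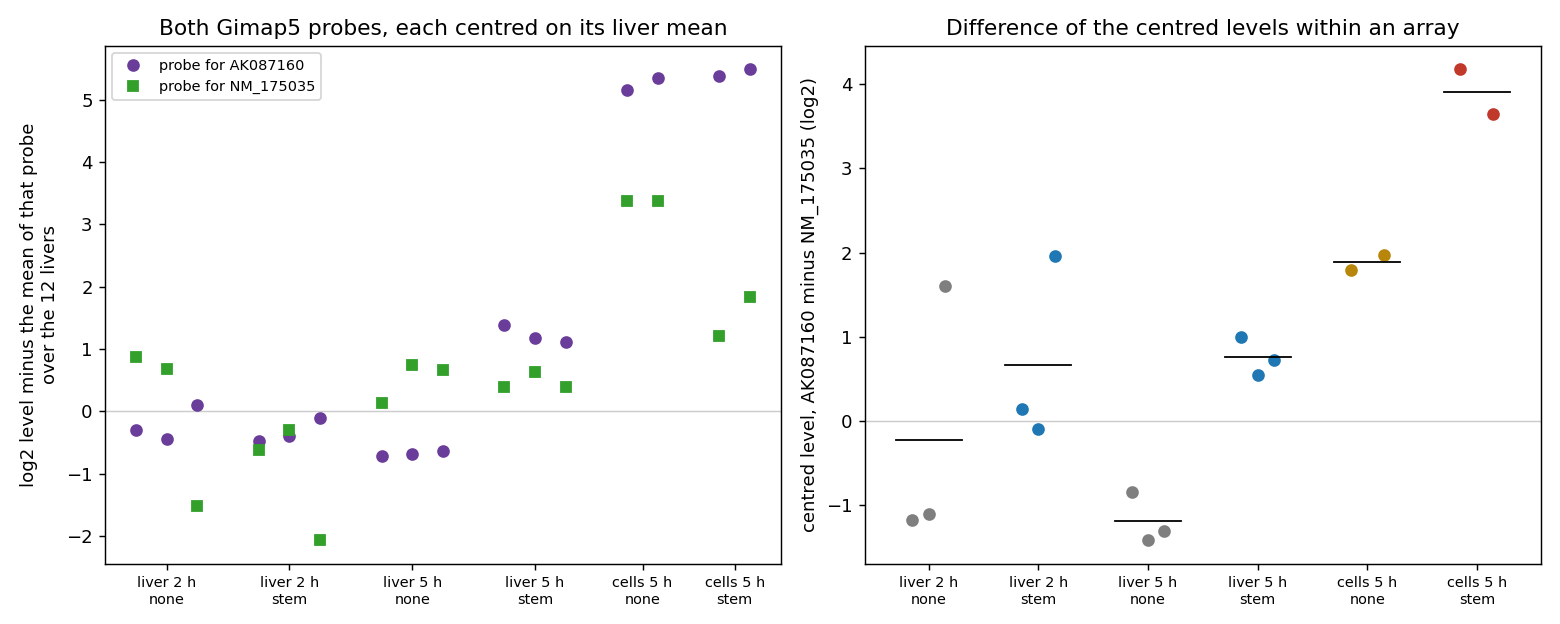
On the left, the log2 level of each Gimap5 probe is shown in each sample after its own mean over the 12 livers was subtracted. On the right, the difference of the centred levels, AK087160 minus NM_175035, is shown with a line at each group mean. The cells with stem cells lie above those without on the right, the 2 h livers overlap, and the 5 h livers are those whose values led to the choice.

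Over the 12 livers the members did not move as a single group. The following Pearson r and Spearman rho describe 12 livers that share slides and groups. Gimap5 values in these livers entered the choice, so its pairs are given as values only. The Gimap5 mRNA probe and Gimap9 had r = 0.84 and rho = 0.72, and r was 0.33 without mice 10 and 13. The Gimap5 mRNA probe and Gimap1 had r = -0.78 and rho = -0.50, and -0.39 without these mice, so both were weaker without them. The 2 Gimap5 probes had r = 0.08 and rho = -0.17. Among the 15 pairs of the 6 probes that were above background in all livers, Gimap5 by AK087160 had no r with another probe beyond 0.08 upwards or -0.39 downwards.

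The mean of these 6 probes, each centred on its own liver mean, ran from -0.39 in mouse 10 to 0.26 in mouse 2. It holds both Gimap5 probes, whose values in these livers entered the choice of the family. The genes most like it therefore restate that choice in part, and they are listed as description only. Of 17582 other probes above background in all livers, those most like this mean were of Pou2af1, a B cell coactivator (r = 0.92, rho = 0.89), Myc, a growth regulator (r = 0.91), Asxl1 (r = 0.90), Cd69, an early activation antigen of lymphocytes (r = 0.90), and Lrmp (r = 0.90). Adarb1, Lratd1, Igsf6, Rbbp8 and Bcl2a1c followed, with r from 0.88 to 0.90. Without mice 10 and 13, r over the 10 genes ran from 0.75 for Rbbp8 to 0.93 for Bcl2a1c.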

How the data were processed

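RNA of 16 samples was hybridised to 1-colour Agilent arrays. The deposited scanner files give linear spot intensity from which the background had been subtracted, with no scaling between arrays, per the file headers. The submitters' processing notes name Agilent Feature Extraction 10.5.1.1. The authors' value table holds the same values. From these, log2 of the processed signal minus the 75th percentile of each array was computed, without control spots and spots marked as outliers (55 to 100 an array), and 0 spots were saturated. Probes well above background on at least 3 livers, 2 cell samples, or 2 samples of both were fitted with limma 3.58.1 in R 4.3.3 (lmFit and eBayes, 2-sided, Benjamini-Hochberg over all probes of the fit, threshold 0.05), the 12 livers, the 4 cell samples and all 16 separately. Errors after ± are standard errors of the fit. The number of arrays limits the precision.

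Where every array of a group was short of well above background, a bound is given, computed against the higher of its own signal and the lowest signal well above background on each array. Lists count 1 probe a gene, the brightest. The members, lists and tests were chosen with earlier results of these data known. All members are named by every probe. Other genes were named by rule: at most 4 called genes of a list with the largest change, 13 fixed reference genes and the 10 genes most like the family mean. Results of some of these genes are not reported here.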

Additional observations from a re-analysis of the deposited data

How the results depend on the processing

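Each replicate number is used once and pairs no samples. With the slide as a block, no Gimap probe outside Gimap5 passed in 2 h livers, where 0% of 25205 probes were called. The same held at 5 h against 2 h, where 11.2% were called. Without mice 10 and 13 together, none of these probes passed in 2 h livers, while 2.25% of all probes were called. Gimap5 is left out here because its values in these livers entered the choice of the family. With normexp background correction, 2 Gimap probes in place of 0 passed in inflammatory cells, when 6.26% of all probes were called. For cells against livers, counts under the alternative runs hold both Gimap5 probes and the Gimap7 mRNA probe, which have no place in the main count, and are not given. At 5 h against 2 h, no Gimap probe outside Gimap5 passed under any alternative run, in which 1% to 15.7% of all probes or genes were called.

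Signs turned for differences that had not passed. With normexp in 2 h livers these were Gimap4 (0.48), Gimap3 (0.63 and 0.46) and Gimap6 (-0.12), and in inflammatory cells Gimap6 (-0.24), both Gimap7 probes (0.35 for AK041116 and 0.20) and Gimap5 by AK087160 (-0.11). Gimap7 by its mRNA probe had 0.13 there with the percentile taken over probes above background on all arrays. At 5 h against 2 h they were Gimap3 by A_51_P516753 with quantile normalization (0.057), Gimap9 with array weights (-0.14) and without mice 10 and 13 (-0.20), and the Gimap5 mRNA probe without them (-0.26). Leaving out 1 sample gave ranges across 0 in 2 h livers for Gimap3 by A_51_P516753 (-0.35 to 0.14), Gimap1 (-0.059 to 0.46), Gimap9 (-0.66 to 0.19) and Gimap5 by AK087160 (-0.22 to 0.045). At 5 h against 2 h it did so for Gimap3 by A_51_P516753 (-0.38 to 0.15), Gimap9 (-0.20 to 0.55) and the Gimap5 mRNA probe (-0.26 to 0.93), and in inflammatory cells for Gimap6 (-0.23 to 0.37), Gimap7 by its mRNA probe (-0.088 to 0.029) and Gimap3 (-1.63 to 0.12 by either probe). The cause was not tested.

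For cells against livers without stem cells, Gimap9 passed with normexp, quantile normalization, the percentile over detected probes, the groups compared alone, and without mice 10 and 13 (lowest adjusted p = 0.00807, limma). Gimap7 by AK041116 did not pass with normexp (0.59), array weights (2.25) or the groups alone (2.71, adjusted p = 0.0554). With stem cells it differed by 0.83 under normexp, given as a value only. Signal near background limits Gimap7 and, in livers, Gimap3.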
